A study of Mus musculus with 30 samples.

Results

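The 9 genes described here encode chains of the receptors through which bone marrow progenitors receive the myeloid growth factors and the cytokines of the common gamma chain family. They were chosen by name, with earlier results of these data known. Counts of receptors set beside shares of all genes are therefore descriptions. All 9 were found among the 24063 genes of a bulk RNA-seq table and among the 27933 genes of a single-cell table, and all 9 were among the 15545 bulk genes and the 13071 single-cell genes that passed the filter on low counts.

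These receptors are built from shared and private chains. Csf2rb encodes the beta common chain, which carries the signal of GM-CSF, interleukin-3 and interleukin-5, and mice have a close copy, Csf2rb2, whose product serves interleukin-3 alone. The alpha chains encoded by Csf2ra (for GM-CSF) and Il3ra (for interleukin-3) bind the ligand and give the complex its specificity. Csf3r is the G-CSF receptor of the neutrophil lineage, and Csf1r is the receptor tyrosine kinase for M-CSF that marks monocytes and macrophages. Il6st encodes gp130, the signalling chain shared by the interleukin-6 family, and Il6ra its ligand-binding partner for interleukin-6. Il2rg encodes the common gamma chain shared by the receptors for interleukin-2, interleukin-4, interleukin-7, interleukin-15 and related cytokines. Apart from Csf1r, the chains have no kinase of their own and signal through JAK kinases and STAT transcription factors.

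Csf2rb (GRCm38 15:78325752-78353847, plus strand) and Csf2rb2 (15:78282507-78305721, minus strand) lie side by side, and their coding sequences were identical at 2504 of 2626 aligned bases (95.4%). The pair of stretches below shows how close they are, since it bears on which gene a read was given to. Each covers 150 coding bases, from coding position 1269 to 1418 in Csf2rb and from 1266 to 1415 in Csf2rb2, with the 16 bases that differ in capitals.
Csf2rb: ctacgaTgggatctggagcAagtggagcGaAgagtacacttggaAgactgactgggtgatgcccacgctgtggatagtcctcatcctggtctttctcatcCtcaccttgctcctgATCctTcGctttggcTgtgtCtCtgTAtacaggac
Csf2rb2: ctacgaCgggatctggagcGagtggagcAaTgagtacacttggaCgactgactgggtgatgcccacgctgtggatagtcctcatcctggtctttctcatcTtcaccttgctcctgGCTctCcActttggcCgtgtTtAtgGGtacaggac
The longest identical run in this window was 55 bases, and the bulk reads were 50 bases long. Over all exons, 12.3% of the 50-base words of Csf2rb and 18.4% of those of Csf2rb2 also occurred in the other gene. The division of bulk reads between the genes is therefore uncertain. The last 500 bases of the transcripts, where droplet libraries read, shared 0 words of that length.

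The mice carried a floxed Mettl3 gene on both alleles (Mettl3 fl/fl). Mettl3 is the catalytic subunit of the complex that writes m6A, a methyl mark on adenosines of messenger RNA. Mettl3KO mice also carried Mx1-Cre, a recombinase under the Mx1 promoter. That promoter answers to interferon, which the RNA analogue pIpC induces, and it is active in blood-forming and other cells. WT mice had the floxed alleles without Cre. Cells were taken 3 weeks after pIpC, so the presence of Cre and the loss of Mettl3 cannot be told apart. All sorted populations were Lin-, Sca1+ and c-Kit+. HSC were CD150+;CD48-, MPP4 were CD150-;CD48+, MPP1 lacked both markers (CD150-;CD48-) and MPP2 had both (CD150+;CD48+). Each was sequenced in bulk from 3 mice of each genotype, which gave 24 libraries. Droplet sequencing of Lin-; c-Kit+ cells (LK), which also hold the committed myeloid, megakaryocytic and erythroid progenitors, covered 3 mice of each genotype. The age of the mice was not given in the sources used here.

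Bulk libraries held 28896498 to 55276836 counts and LK libraries 28796862 to 44308479 UMIs, with medians of 5945 to 10490 UMIs per cell. Mettl3, the targeted gene, lay between 29.6 and 42.5 CPM (the gene's counts relative to the library total after TMM scaling) in the 12 WT bulk libraries and between 11.6 and 22.4 CPM in the 12 Mettl3KO libraries. It fell in each population, by 0.77 on the log2 scale in MPP4 (edgeR, adjusted p = 0.022) to 1.49 in MPP1 (adjusted p = 7.1e-05). Summed over LK cells, with CPM now of UMIs on the total UMIs of the cells summed, it fell from 18.9 to 22.3 CPM in WT to 10.6 to 13.1 CPM in Mettl3KO. The HSC/MPP marker genes summed to 4031 to 4663 CPM in WT HSC and to 1769 to 2715 CPM in WT MPP4. Some libraries stood apart in markers of mature blood cells. In MPP1 Mettl3KO replicate 2 the 7 neutrophil markers summed to 62976 CPM against 20.7 to 3900 CPM in the other 23 libraries, and in MPP2 WT replicate 1 the 7 measured macrophage markers summed to 5995 CPM against 36.4 to 1452 CPM. LK WT replicate 3 held 1050 of the 1287 neutrophil-like cells. Other marker sums moved with genotype. The 8 B cell markers summed to 43.9 to 51.6 CPM in WT and 150.3 to 168 CPM in Mettl3KO MPP1, to 165 to 219 and 290.2 to 384 CPM in MPP2, and to 451 to 1006 and 2043 to 4690 CPM in MPP4, and overlapped in HSC. The 10 erythroid markers were lower in Mettl3KO without overlap in all 4 populations, from 1101 to 1527 against 695 to 863 CPM in HSC to 713 to 772 against 252 to 337 CPM in MPP4. The 7 lymphoid-primed markers were lower in HSC (219 to 562 against 98.8 to 118 CPM), MPP1 and MPP2 and overlapped in MPP4. The 10 HSC/MPP markers were lower in Mettl3KO HSC (2956 to 3739 CPM), MPP1 (3406 to 3755 against 2313 to 2899 CPM) and MPP4 (1271 to 1477 CPM), and overlapped in MPP2. The 8 dendritic markers were lower in HSC (729 to 1143 against 272 to 597 CPM) and MPP4 (3986 to 8249 against 3331 to 3738 CPM), and overlapped in MPP1 and MPP2. The part of these shifts in the receptor values below was not tested. Results are given without these libraries where they move.

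In WT cells the 9 receptors covered a wide range of levels, here compared per kilobase of annotated exon. Il2rg and Csf3r stood highest in WT HSC, at 64.5 ± 1.93 and 61.2 ± 20.8 CPM per kb (SD, n = 3), and did not differ beyond their spread. Csf2ra followed at 25.9 ± 0.82. Csf2rb2 (4.82 ± 2.06), Il3ra (4.17 ± 0.79) and Csf2rb (3.88 ± 1.02 CPM per kb) were lower and lay within each other's spread, as did Il6ra (1.70 ± 0.45) and Il6st (1.44 ± 0.59). Csf1r was lowest, at 0.39 ± 0.44 CPM per kb. The sum of exon lengths counts rare exons too, which lowers the value of genes such as Il6st with many annotated transcripts.

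**Figure D1:**
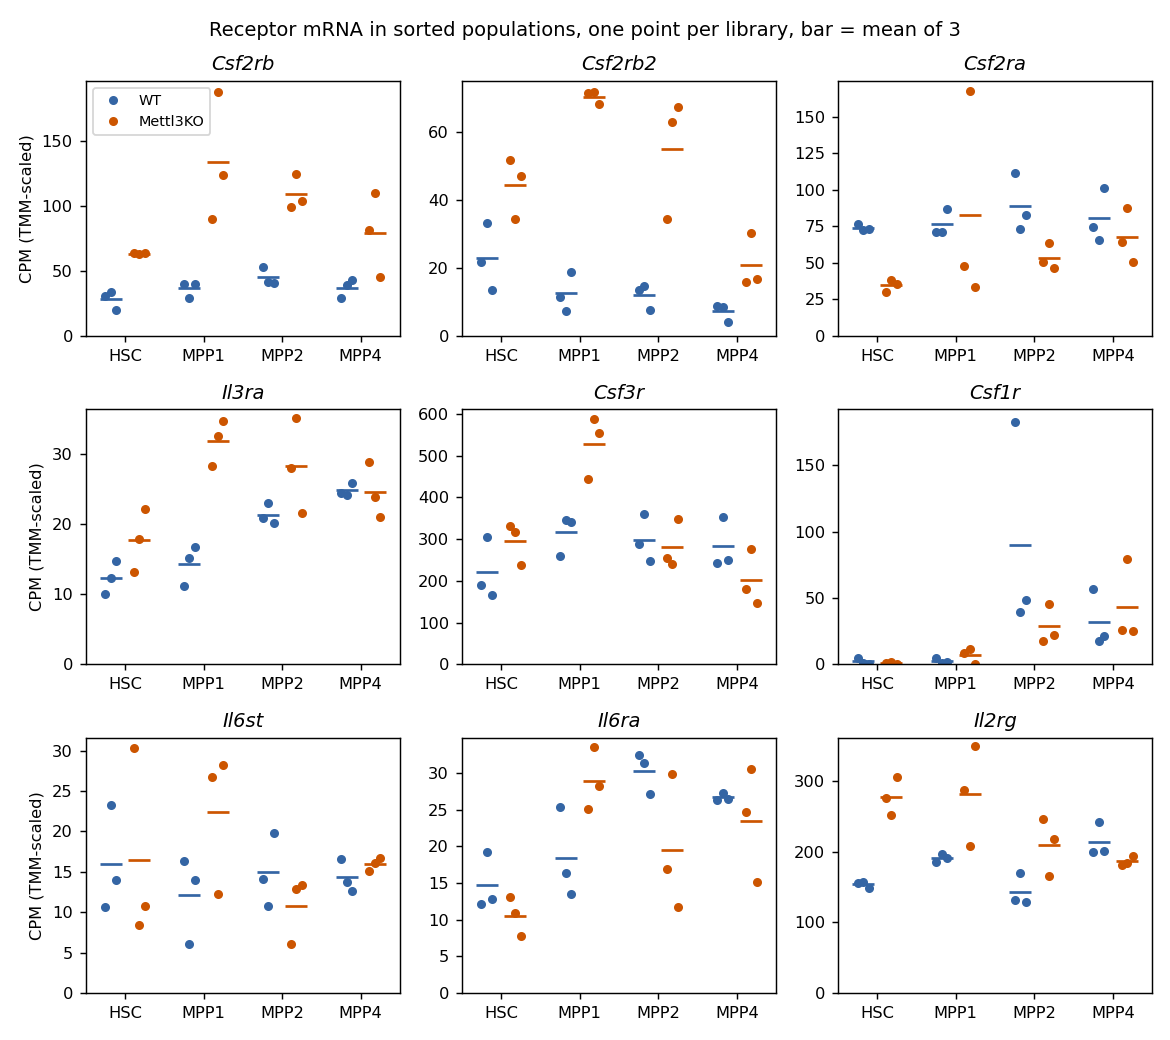
CPM of each receptor gene (y axes from 0, 1 panel per gene) in the 4 sorted populations, with 1 point per library, WT in blue and Mettl3KO in orange, and a bar at the mean of 3. The Mettl3KO points of Csf2rb lie above all WT points of the same population throughout, while those of Csf2ra lie below them in HSC and MPP2.

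Among WT populations, the receptors that differed did so between HSC and the more committed MPP2 or MPP4, and Csf1r also between MPP1 and MPP2. Csf1r was measured at 5.18, 0.93 and 0.66 CPM in the 3 WT HSC libraries, 5.22, 1.32 and 1.54 in MPP1, 183, 39.4 and 48.4 in MPP2 and 56.7, 17.8 and 21.8 in MPP4. All MPP2 and MPP4 values lay above all HSC and MPP1 values. It was lower in HSC than in MPP2 (log2 difference -5.31 ± 1.27 SE, edgeR adjusted p = 0.022) and than in MPP4 (-3.82 ± 1.19, adjusted p = 0.042), and lower in MPP1 than in MPP2 (-5.08 ± 1.26, adjusted p = 0.041). The highest value belongs to the MPP2 library with the high macrophage markers, and without it the differences of MPP2 from HSC (-4.28, adjusted p = 0.10) and MPP1 (-4.04, adjusted p = 0.17) did not pass. Il3ra was lower in HSC, at 10.1, 12.3 and 14.8 CPM, than in MPP4, at 24.5, 24.2 and 25.9 (log2 difference -1.01 ± 0.23, adjusted p = 0.0081). Csf2rb2 ran the other way, with 21.8, 33.1 and 13.6 CPM in HSC and 8.75, 8.62 and 4.24 in MPP4 (1.66 ± 0.39, adjusted p = 0.011). Il6ra stood at 12.1, 19.2 and 12.8 CPM in HSC, below all MPP2 (32.4, 31.4 and 27.1 CPM) and MPP4 libraries (26.3, 27.3 and 26.5 CPM). It did not pass in edgeR (-1.04 ± 0.32, adjusted p = 0.073 against MPP2, and -0.86 ± 0.32, adjusted p = 0.084 against MPP4), while DESeq2 (0.028 and 0.049) and fits of the 6 libraries compared (0.043 and 0.040) called it.

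That made 1 of 9 receptors higher in WT HSC than in MPP4, where 5.40% of all genes were higher, and 2 of 9 lower (6.65% of all genes). The 1 of 9 that differed between HSC and MPP2 and between MPP1 and MPP2 was lower in both, as were 2.51% and 1.58% of all genes. None of the 9 passed between HSC and MPP1 (0.0257% of all genes), MPP1 and MPP4 (4.64%) or MPP2 and MPP4 (0.0901%). At an unadjusted p under 0.05, the counts of the 9 were 1, 2 and 1, and DESeq2 called 0, 2 (Csf1r and Il3ra) and 0. All calls named for Csf1r in WT cells were lost in several fits that left out 1 library (HSC against MPP2 without HSC replicate 2 at 0.12 and replicate 3 at 0.091, and HSC against MPP4 without HSC replicate 2 at 0.18, HSC replicate 3 at 0.11, MPP4 replicate 1 at 0.15, replicate 2 at 0.055 or replicate 3 at 0.064, the adjusted p being given). The MPP1 against MPP2 call was lost without any 1 of its 6 libraries, at adjusted p of 0.054 to 0.17, and that of Csf2rb2 without HSC replicate 2 (0.079) or MPP4 replicate 3 (0.058).

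With Mettl3 deleted, the beta chains rose in the sorted populations. In HSC, Csf2rb stood at 30.7, 34.1 and 19.9 CPM in WT and at 63.5, 62.9 and 63.6 CPM in Mettl3KO, a 2.24-fold rise (log2 fold change 1.16 ± 0.29 SE, edgeR adjusted p = 0.017). In MPP1 it went from 40.1, 29.6 and 39.9 to 90.1, 187 and 123.97 CPM (1.87 ± 0.29, adjusted p = 6.6e-04). In MPP2 the values were 53.1, 41.3 and 40.9 against 99.1, 125 and 104 CPM (1.27 ± 0.29, adjusted p = 0.020). In all of these no WT library reached a Mettl3KO library, and the same held in MPP4, with 28.9, 39.3 and 42.8 against 81.1, 109.9 and 45.3 CPM (1.09 ± 0.29, adjusted p = 0.040). In bulk RNA a change in the number of cells of a type and a change of RNA per cell cannot be told apart.

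Csf2rb2, the beta chain of interleukin-3 alone, rose in the 3 progenitor populations. It stood at 11.5, 7.49 and 18.7 CPM in WT MPP1 and at 71.3, 71.6 and 68.3 CPM in Mettl3KO MPP1, a 5.60-fold rise (2.48 ± 0.40, adjusted p = 9.6e-04). In MPP2 it went from 13.5, 14.7 and 7.72 to 34.4, 62.9 and 67.4 CPM (2.197 ± 0.40, adjusted p = 0.0052), and in MPP4, from 8.75, 8.62 and 4.24 to 15.8, 30.4 and 16.8 CPM (1.54 ± 0.39, adjusted p = 0.035). In HSC, where the WT level was highest, the values were 21.8, 33.1 and 13.6 against 51.8, 34.5 and 47.2 CPM. They were higher in Mettl3KO without overlap but did not pass (0.96 ± 0.39, adjusted p = 0.15). The effect in HSC minus that in MPP1 was -1.52 ± 0.54 and did not pass its own test (adjusted p = 0.40).

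The alpha chain of the GM-CSF receptor did not follow its beta chain. Csf2ra stood at 76.9, 72.3 and 73.5 CPM in WT HSC and at 30.4, 38.4 and 35.4 CPM in Mettl3KO HSC (-1.10 ± 0.38, 95% interval -1.90 to -0.30, adjusted p = 0.099). The groups did not overlap, and DESeq2 (-1.13, adjusted p = 0.034) and a model of just the 6 HSC libraries (-1.10, adjusted p = 0.027) called the difference. In MPP2 the values were 111, 73.5 and 83.0 against 50.7, 63.7 and 46.4 CPM, again without overlap, and did not pass (-0.74 ± 0.38, adjusted p = 0.36). In MPP1 the library with the high neutrophil markers held 168 CPM, against 47.8 and 33.7 CPM in the other Mettl3KO libraries and 71.0, 71.4 and 87.0 CPM in WT (0.12 ± 0.38, adjusted p = 0.89). Without it Csf2ra was lower in Mettl3KO MPP1 (-0.89, adjusted p = 0.025). The part of neutrophil RNA in this value was not tested. In MPP4 the interval was -1.04 to 0.54.

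Il3ra, the alpha chain for interleukin-3, rose in MPP1, from 11.2, 15.2 and 16.8 to 28.4, 32.6 and 34.8 CPM (1.15 ± 0.23, adjusted p = 0.0047). In HSC it stood at 10.1, 12.3 and 14.8 against 13.2, 17.9 and 22.1 CPM, which overlapped (0.52 ± 0.23, adjusted p = 0.19), and the effect in HSC minus that in MPP1 did not pass its own test (-0.63 ± 0.32, adjusted p = 0.50). In MPP4 the WT libraries held 24.5, 24.2 and 25.9 CPM and the Mettl3KO libraries 28.9, 23.9 and 21.1 CPM, with an interval of -0.49 to 0.46.

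The balance of beta chain mRNA to that of the GM-CSF alpha chain was followed as the sum of Csf2rb and Csf2rb2 over Csf2ra, in CPM per kb. The division of reads between the copies enters this sum through their exon lengths, 7277 bases for Csf2rb and 4740 for Csf2rb2. Shared reads that were dropped or counted for both genes would change it too. How such reads were counted was not given in the sources used here. Since Csf2rb2 serves interleukin-3 alone, the ratio is not one of GM-CSF receptor chains only. This ratio was chosen after the values were seen and is given as a description. It was 0.33, 0.46 and 0.22 in WT HSC and 1.86, 1.19 and 1.51 in Mettl3KO HSC. The means in MPP1 were 0.286 ± 0.052 and 1.68 ± 0.99, in MPP2 0.285 ± 0.050 and 1.44 ± 0.29, and in MPP4 0.243 ± 0.063 and 0.634 ± 0.076 (SD, n = 3). In each population the lowest Mettl3KO library lay above the highest WT library, including the MPP1 library with neutrophil markers, at 0.70.

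**Figure D2:**
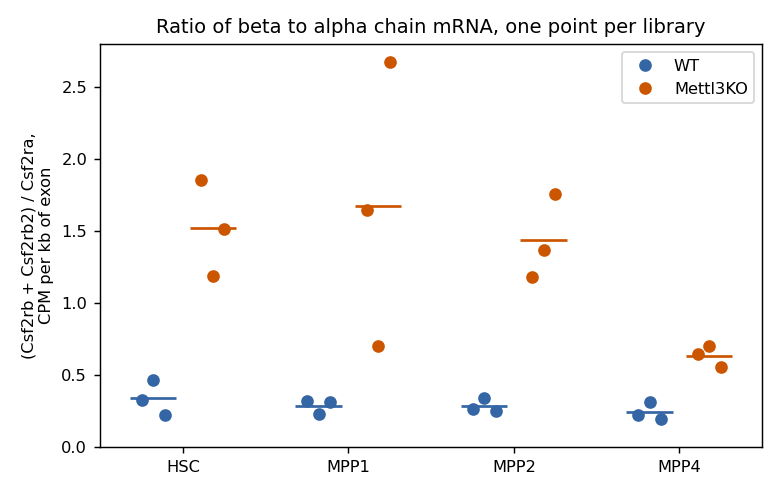
Ratio of beta to alpha chain mRNA, (Csf2rb + Csf2rb2) / Csf2ra in CPM per kb of exon, on the y axis, by population, with 1 point per library, WT in blue and Mettl3KO in orange, and a bar at the mean of 3. All WT libraries lie between 0.19 and 0.46, and all Mettl3KO libraries between 0.55 and 2.68.

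The growth factor receptors of single lineages showed no called change in sorted cells. Csf3r stood at 260, 346 and 342 CPM in WT MPP1 and at 444, 589 and 554 CPM in Mettl3KO MPP1 (0.74 ± 0.26, adjusted p = 0.074), without overlap, and was called there by DESeq2 (adjusted p = 0.029). In MPP4 the order of the means was the opposite, 283 CPM in WT and 202 CPM in Mettl3KO (-0.49 ± 0.25, adjusted p = 0.36). Csf1r varied widely between libraries of a group. In MPP2 its interval ran from -3.90 to 0.59, and in MPP4 from -1.75 to 2.64. Its highest WT value, 183 CPM, was again that of the macrophage-marker library.

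The gp130 chains stayed low, and neither passed in any sorted population. Il6st stood at 10.6, 23.3 and 14.02 CPM in WT HSC and at 30.4, 8.36 and 10.7 CPM in Mettl3KO HSC, groups that overlapped widely (0.05 ± 0.46, adjusted p = 0.98). Il6ra stood at 32.4, 31.4 and 27.1 against 17.0, 29.8 and 11.8 CPM in MPP2 (-0.63 ± 0.32, adjusted p = 0.34) and at 25.4, 16.4 and 13.5 against 25.1, 33.5 and 28.2 CPM in MPP1 (0.65 ± 0.32, adjusted p = 0.21).

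Il2rg, the common gamma chain, rose in HSC and MPP1. In HSC the WT libraries held 156, 157 and 149 CPM and the Mettl3KO libraries 276, 253 and 306 CPM, a 1.81-fold rise (0.85 ± 0.17, adjusted p = 0.0049). In MPP1 they held 186, 196 and 190.5 against 287, 208 and 350.1 CPM (0.56 ± 0.17, adjusted p = 0.048). The values in MPP2, at 131, 169.6 and 129 against 246, 165 and 218 CPM, overlapped and did not pass (0.55 ± 0.17, adjusted p = 0.10), although DESeq2 called them (adjusted p = 0.038). In MPP4 the order was reversed without overlap, with WT at 199, 242 and 201 CPM and Mettl3KO at 181, 184 and 194 CPM (-0.20 ± 0.17, interval -0.56 to 0.16, adjusted p = 0.64).

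**Figure D3:**
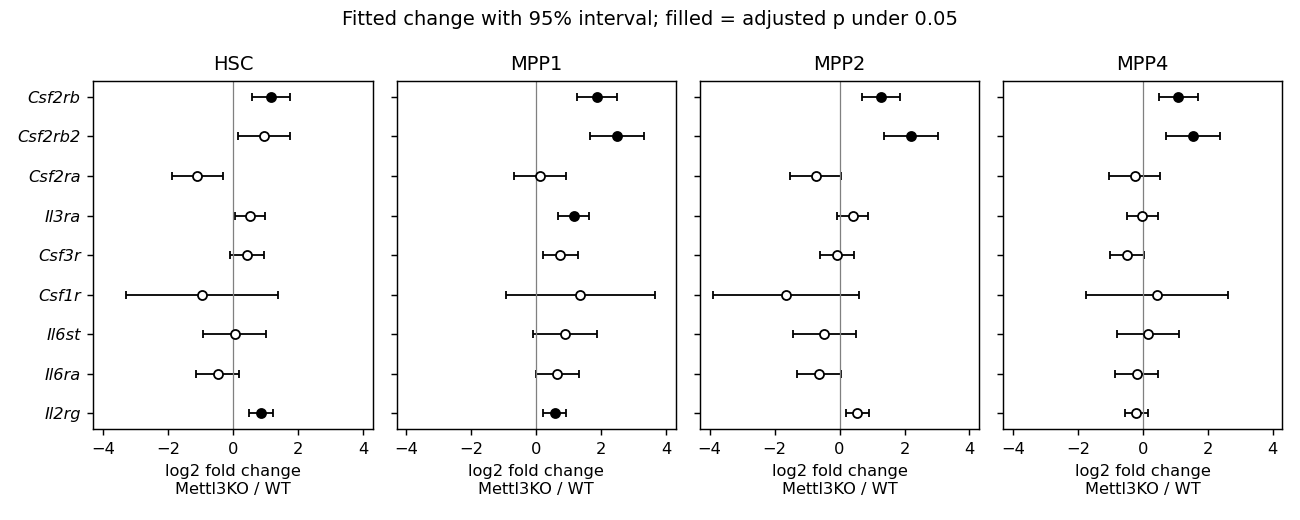
Fitted log2 fold change of Mettl3KO over WT (x axis) for each receptor gene (y axis) in the 4 sorted populations, with its 95% interval and filled points where the adjusted p was under 0.05. Csf2rb is filled in all 4 populations, Csf2rb2 in MPP1, MPP2 and MPP4, Il2rg in HSC and MPP1, and Il3ra in MPP1.

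In all, 2 of the 9 receptors rose in HSC, where 3.66% of all genes tested rose, 4 of 9 in MPP1 (4.74%), 2 of 9 in MPP2 (1.51%) and 2 of 9 in MPP4 (1.03%). None fell, against 2.49%, 3.89%, 0.965% and 2.10% of all genes. Since the receptors were chosen with earlier results of these data known, the shares do not test the receptors as a set. The WT and Mettl3KO libraries did not overlap for 4 of 9 receptors in HSC (24% of all genes), 5 of 9 in MPP1 (22.3%), 3 of 9 in MPP2 (26.6%) and 3 of 9 in MPP4 (28.4%). The difference of the Mettl3KO effect between HSC and each other population was tested too. Il2rg passed for HSC against MPP4 (1.05 ± 0.24, adjusted p = 0.032), 1 of 9 receptors higher where 0.939% of all genes were. That call was lost in 10 of 12 fits that left out 1 library (adjusted p of 0.055 to 0.11), and held without HSC Mettl3KO replicate 1 or MPP4 WT replicate 1. No receptor passed for HSC against MPP1 (0.0386% of all genes) or MPP2 (0.00643%), where unadjusted p values under 0.05 numbered 3 and 1 of 9 and DESeq2 called 0 and 0.

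Several of these calls were lost when 1 library was left out or when the spread was taken from the 6 libraries compared, often with little change of the value. The HSC call of Csf2rb was lost without Mettl3KO replicate 3 (adjusted p = 0.053) or WT replicate 3 (0.089), at log2 values of 1.16 and 0.97, and the MPP2 call without Mettl3KO replicate 1 (0.056) or 2 (0.076) or WT replicate 2 (0.089) or 3 (0.089), at 1.17 to 1.33. In MPP4 the Csf2rb call was lost without any library but Mettl3KO replicate 3 (0.093 to 0.23), and the Csf2rb2 call without any but Mettl3KO replicate 1 (0.061 to 0.21). Without MPP4 Mettl3KO replicate 2, the library with the highest values, Csf2rb stood at 0.77 and Csf2rb2 at 1.18 on the log2 scale. In that library the 9 granulocyte markers summed to 13150 CPM, against 4928 and 3146 CPM in the other MPP4 Mettl3KO libraries and 3761 to 6834 CPM in WT MPP4. They summed to 9297 CPM in MPP2 Mettl3KO replicate 2, and to 4558 to 9027 CPM in WT MPP2. The part of this in the receptor values was not tested. The MPP1 call of Il2rg was lost without any library but Mettl3KO replicate 2 (0.084 to 0.22). A fit of the 6 MPP1 libraries alone called none of the 4 (0.054 for Csf2rb2 to 0.32 for Il2rg), at values of 1.88 for Csf2rb, 2.49 for Csf2rb2, 1.15 for Il3ra and 0.57 for Il2rg. A fit of the 6 MPP4 libraries alone lost Csf2rb (0.064), at 1.11. Without the library with high neutrophil markers, MPP1 kept Csf2rb at 1.57 (adjusted p = 0.0023), Csf2rb2 at 2.49 (0.0018), Il3ra at 1.15 (0.0080) and Il2rg at 0.76 (0.0079). Without the library with high macrophage markers, MPP2 kept Csf2rb at 1.40 (0.049) and Csf2rb2 at 2.29 (0.026).

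The same receptors were then read in LK cells, in other libraries and with UMIs from transcript ends. The make-up of these cells differed between genotypes. B cell-like cells numbered 124 to 307 per WT and 708 to 1196 per Mettl3KO library, and erythroid-like cells 594 to 661 and 189 to 395. The part of this in sums over all LK cells was not tested, and values within classes follow further down. Csf2rb2 showed the largest difference of the 9 on the log2 scale, from 0.57, 0.63 and 0.73 CPM in WT (25, 25 and 21 UMIs) to 2.84, 3.05 and 2.27 in Mettl3KO (112, 91 and 98 UMIs), a 4.23-fold rise (2.08 ± 0.20, edgeR adjusted p = 8.2e-04). Il2rg rose 2.13-fold, from 10.2, 9.75 and 11.004 to 23.6, 20.8 and 21.5 CPM (1.09 ± 0.08, adjusted p = 3.8e-04). Csf2rb rose 1.54-fold, from 12.5, 12.5 and 12.7 to 18.7, 21.6 and 17.7 (0.62 ± 0.09, adjusted p = 0.0027). Csf2ra fell, from 51.5, 49.7 and 68.0 to 44.5, 34.9 and 39.0 CPM (-0.51 ± 0.14, adjusted p = 0.030). The groups did not overlap for these 4 genes.

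**Figure D4:**
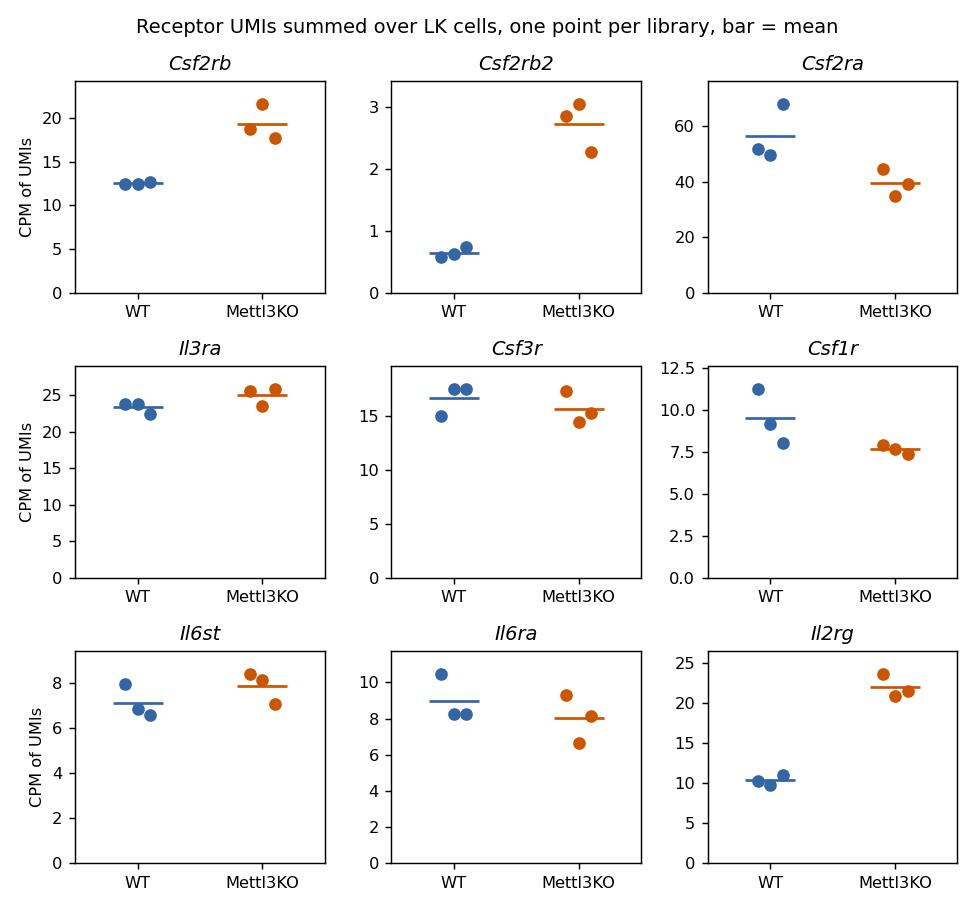
CPM of each receptor gene (y axes from 0, 1 panel per gene) summed over the LK cells of each library, with 1 point per library, WT in blue and Mettl3KO in orange, and a bar at the mean of 3. Csf2rb, Csf2rb2 and Il2rg lie higher and Csf2ra lower in all 3 Mettl3KO libraries.

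The remaining receptors of LK cells did not pass. Il3ra stood at 23.8, 23.9 and 22.4 against 25.6, 23.5 and 25.9 CPM (interval -0.06 to 0.26) and Csf3r at 15.0, 17.5 and 17.5 against 17.2, 14.4 and 15.3 (interval -0.31 to 0.14). Csf1r stood at 11.3, 9.19 and 8.07 against 7.95, 7.71 and 7.37 (-0.31 ± 0.13, adjusted p = 0.12), without overlap. The intervals of Il6st (-0.13 to 0.41) and Il6ra (-0.51 to 0.18) included 0. Thus 3 of 9 receptors rose, where 13.7% of all genes rose, and 1 of 9 fell, where 8.72% fell. The groups did not overlap for 5 of 9 receptors and 41.5% of all genes. The Csf2ra call was lost without Mettl3KO replicate 2 (-0.43, adjusted p = 0.090) or 3 (-0.51, adjusted p = 0.091). It held at -0.36 (adjusted p = 0.041) without WT replicate 3, the library with most neutrophil-like cells, and at -0.39 (adjusted p = 0.014) without neutrophil-like cells in any library. Without WT replicate 3 Csf1r was called lower in Mettl3KO (-0.42, adjusted p = 0.039).

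LK cells were clustered without the 9 receptor genes, and the clusters were named from marker genes of each lineage. Receptor levels differed widely between the classes. The macrophage-like class (5 WT and 35 Mettl3KO cells) and the T and NK-like class (57 and 46 cells) were left out for their size, and 68.6% of the thinned Mettl3KO macrophage-like cells held a Csf1r UMI. Of the other 9 named classes, Csf1r was highest in monocyte-like cells, at 36.7 ± 1.49 CPM in WT and 30.9 ± 4.31 in Mettl3KO (SD, n = 3), and Csf3r in granulocyte-like cells, at 41.1 ± 2.60 and 40.0 ± 2.52. Csf2rb and Il3ra peaked in basophil and mast-like cells, at 70.2 ± 10.8 and 96.7 ± 25.2 in WT. Csf2ra stood highest in WT in dendritic-like (121 ± 21.0) and granulocyte-like cells (119 ± 10.2), which did not differ beyond their spread, and Il6ra in dendritic-like cells (46.2 ± 10.6). Erythroid-like cells held at most 2.28 CPM of any receptor but Csf2ra and Il2rg.

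Shares of cells with a UMI were read after each cell was thinned to 3000 UMIs. Csf3r was seen in 11.2% of WT and 12.6% of Mettl3KO granulocyte-like cells (31.4% and 34.7% without thinning), against 0.157% and 0.241% of erythroid-like cells. In neutrophil-like cells its shares were of like size, at 9.39% of 1076 WT and 13.4% of 127 Mettl3KO cells (13.5% and 19.7% without thinning). In WT, Csf2ra too was seen in a like share of neutrophil-like cells (27.2%), granulocyte-like cells (30.4%) and dendritic-like cells (26.3%). Without thinning these WT shares were 41.6%, 64.2% and 38.2%. Csf1r was seen in 11.1% of WT and 8.98% of Mettl3KO monocyte-like cells (31.9% and 30.4% without thinning), against 0.105% and 0% of erythroid-like cells. The 0 of 831 Mettl3KO erythroid-like cells allow a share of up to 0.361% at the thinned depth, for counting error only, and without thinning 0.992% of WT and 0.480% of Mettl3KO erythroid-like cells held a Csf1r UMI. Median depths were 9213 and 10356 UMIs in granulocyte-like, 10696 and 11917 in monocyte-like and 17078 and 20035 in erythroid-like cells of WT and Mettl3KO.

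**Figure D5:**
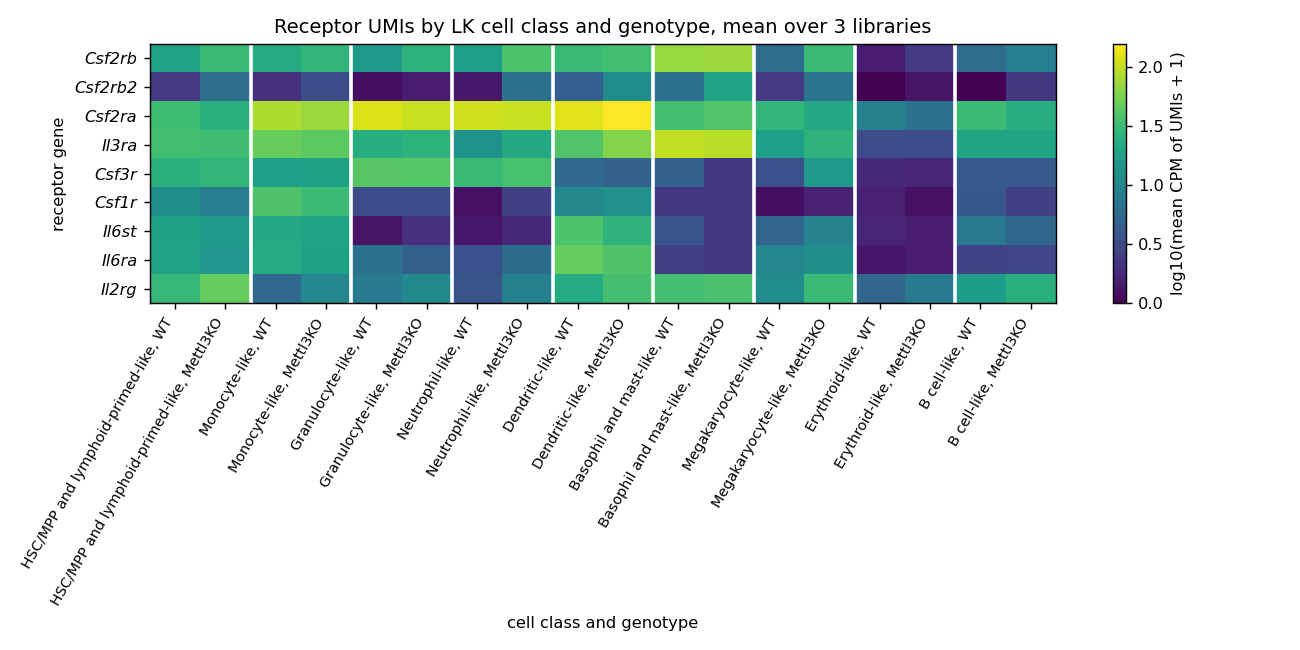
Colour gives log10(mean CPM + 1) over 3 libraries for each receptor gene (y axis) in each LK cell class and genotype (x axis), to be read along a row. Csf1r is brightest in monocyte-like, Csf3r in granulocyte-like and Csf2rb and Il3ra in basophil and mast-like cells, and the erythroid-like columns are dark but for Csf2ra and Il2rg.

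In the 7 classes that held 50 or more cells in each of the 6 libraries, Mettl3KO was compared with WT on summed UMIs, which gave 11 calls. In the pooled HSC/MPP-like and lymphoid-primed-like cells, Csf2rb rose from 14.8, 19.1 and 18.8 to 27.7, 31.6 and 30.9 CPM (0.78 ± 0.13, adjusted p = 0.0010). Csf2rb2 rose from 1.33, 1.25 and 1.49 to 5.04, 4.73 and 5.46, which were 5 to 7 UMIs in WT and 24 to 44 in Mettl3KO (1.91 ± 0.30, adjusted p = 6.7e-04). Il2rg rose from 27.0, 24.3 and 32.6 to 47.1, 42.6 and 49.7 (0.75 ± 0.13, adjusted p = 0.0012). Csf1r fell (-0.62 ± 0.20, adjusted p = 0.044) and so did Il6ra (-0.49 ± 0.16, adjusted p = 0.047). Thus 3 of 9 rose against 11.1% of all genes and 2 of 9 fell against 7.18%.

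This class was made up differently in the genotypes. Cluster 0, the only HSC/MPP-like cluster, held 15 WT and 2184 Mettl3KO cells, while the lymphoid-primed-like clusters 2 and 11 held 1366 and 586 WT and 598 and 386 Mettl3KO cells. In the lymphoid-primed-like clusters alone no receptor passed (8.12% of all genes did, and 1 of the 8 receptors tested had an unadjusted p under 0.05). Csf2rb stood at 0.42 ± 0.17 (adjusted p = 0.14), Il2rg at 0.26 ± 0.13 (0.25), Il6ra at -0.22 ± 0.18 (0.49), and Csf1r turned to 0.30 ± 0.19 (0.35). Csf2rb2 was not tested there for its low counts, and its means were 1.36 CPM in WT and 2.79 CPM in Mettl3KO, without overlap. Cluster 0 in Mettl3KO held 34.9 CPM of Csf2rb, 58.0 of Il2rg and 1.97 of Csf1r. The calls of Csf1r and Il6ra were each lost in DESeq2 (0.11 and 0.12) and in 5 of 6 fits that left out 1 library (0.061 to 0.20 for Csf1r, without any but Mettl3KO replicate 2, and 0.058 to 0.24 for Il6ra, without any but WT replicate 3). With coarser clusters (Leiden resolution 0.5) Csf1r stood at -1.22 (0.0021), Il6ra was lost (-0.40, 0.060) and Csf2ra was called lower (-0.53, 0.0040). There the HSC/MPP-like cluster held 7 to 9 cells per WT and 636 to 1681 per Mettl3KO library, so the genotypes were again unlike. It took in 1382 Mettl3KO cells of cluster 8, described next, whose Mettl3KO cells held 0.50 CPM of Csf1r.

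The class named megakaryocyte-like by its markers held unlike cells in the genotypes, so its comparison does not set like against like. Cluster 14, with Pf4, Gp1bb and Vwf among its leading genes, held 670 WT and 97 Mettl3KO cells. Cluster 8, with 1 megakaryocyte marker (Itga2b) and 1 HSC/MPP marker (Esam) among its top 10 genes, held 2 WT and 1386 Mettl3KO cells. All 8 megakaryocyte markers were at least 2-fold higher in cluster 8 than in the other cells (mean log2 fold 2.39). With coarser clusters, 1382 of those 1386 cells fell into the HSC/MPP-like cluster and 3 into the megakaryocyte-like cluster, where 96 of the 97 and all 670 cells of cluster 14 lay.

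Between these cells of Mettl3KO and WT, Csf3r differed from 2.68, 2.60 and 2.06 to 13.7, 13.2 and 15.1 CPM, 3 to 4 UMIs per library in WT and 37 to 77 in Mettl3KO (2.49 ± 0.32, adjusted p = 2.0e-05). Csf2rb differed from 4.03, 5.85 and 5.49 to 20.6, 48.0 and 21.3 (2.45 ± 0.43, adjusted p = 3.4e-04), and Il2rg from 9.39, 13.006 and 9.61 to 31.2, 32.7 and 27.5 (1.501 ± 0.20, adjusted p = 2.3e-05). Il3ra (0.63 ± 0.20, adjusted p = 0.020) and Il6st (0.98 ± 0.32, adjusted p = 0.028) were higher too, which made 5 of the 7 receptors tested higher, where 17.6% of all genes were.

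With the coarser clusters, the megakaryocyte-like class left out all but 3 cells of cluster 8. It held 446 to 556 cells per WT and 88 to 121 per Mettl3KO library. Only 670 WT and 96 Mettl3KO cells of it came from cluster 14, so most of its cells came from elsewhere. Its top 10 genes included Apoe, Trib2 and Csrp3, which were also among those of cluster 12, a cluster that took no name. The part of these cells in the values was not tested. In this mixed class Csf2rb passed at 1.76 ± 0.30 (adjusted p = 0.0021). There Il2rg (0.68, adjusted p = 0.17) and Il3ra (0.38, adjusted p = 0.56) did not pass, and Csf3r and Il6st were not tested. Within cluster 14, pooled over libraries and with no test, Csf2rb was at 5.12 CPM in WT and 21.0 in Mettl3KO (23 and 17 UMIs) and Il2rg at 10.7 and 24.7 (48 and 20 UMIs). Csf3r was at 2.45 and 1.24 there (11 UMIs and 1 UMI), and at 14.8 in the Mettl3KO cells of cluster 8. DESeq2 did not call Il3ra and Il6st (0.066 and 0.12). Libraries that change a call were Mettl3KO replicate 3 and WT replicate 1 for Il3ra (0.061 and 0.11), and Mettl3KO replicate 1 and WT replicates 1 and 2 for Il6st (0.067, 0.12 and 0.13). Without WT replicate 1, Csf2ra was called lower (-0.65, adjusted p = 0.027).

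Among the other classes, Il2rg rose in monocyte-like cells, from 4.98, 4.08 and 4.71 to 9.14, 10.0 and 8.82 CPM (1.00 ± 0.19, adjusted p = 0.015), 1 of the 8 receptors tested against 0.725% of all genes. That call was lost without Mettl3KO replicate 1 (0.054) or 2 (0.058) or WT replicate 2 (0.085). Csf2rb in granulocyte-like cells stood at 13.6, 17.5 and 10.96 against 23.9, 30.4 and 20.6, without overlap, and did not pass (0.76 ± 0.18, adjusted p = 0.090), though it was called by DESeq2 (0.039), with coarser clusters (0.028) and without the filter on low counts (1.2e-04). In B cell-like, dendritic-like, erythroid-like and granulocyte-like cells edgeR called no receptor, where 0.573%, 0.532%, 6.30% and 0.324% of all genes were called. Unadjusted p values under 0.05 numbered 2 of 6, 2 of 6, 2 of 3 and 2 of 7 receptors tested, and DESeq2 called 0, 0, 0 and 1.

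The promoters of Csf2rb2, Csf2ra and Il2rg, 3 of the 4 receptors that passed in LK cells, are shown to let the sequence be set beside the direction of each gene. Each is the 250 bases before the RefSeq start, on the gene's strand, in GRCm38.p6, with motif matches in capitals. They lie at 15:78305722-78305971 for Csf2rb2, 19:61228419-61228668 for Csf2ra and X:101268256-101268505 for Il2rg, all on the minus strand.
Csf2rb2: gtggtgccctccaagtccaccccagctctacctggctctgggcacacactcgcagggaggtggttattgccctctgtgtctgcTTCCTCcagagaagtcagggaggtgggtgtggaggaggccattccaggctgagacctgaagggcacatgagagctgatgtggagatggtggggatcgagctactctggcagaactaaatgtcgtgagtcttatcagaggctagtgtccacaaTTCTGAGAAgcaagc
Csf2ra: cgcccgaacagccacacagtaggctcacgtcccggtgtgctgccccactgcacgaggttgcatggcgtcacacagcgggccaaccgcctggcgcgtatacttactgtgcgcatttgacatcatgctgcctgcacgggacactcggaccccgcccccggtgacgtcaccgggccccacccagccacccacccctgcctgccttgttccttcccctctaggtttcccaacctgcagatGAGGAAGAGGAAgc
Il2rg: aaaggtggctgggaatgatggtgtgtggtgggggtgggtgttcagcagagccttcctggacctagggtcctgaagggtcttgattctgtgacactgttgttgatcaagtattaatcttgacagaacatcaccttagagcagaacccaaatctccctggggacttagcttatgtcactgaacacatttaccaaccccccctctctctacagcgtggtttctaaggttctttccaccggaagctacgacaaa
Both strands were searched for 4 motifs. GAGGAA, the core bound by PU.1, occurred in 23.3% of 32851 promoters of this length, and TTGCNNAA, a C/EBP site, in 9.56%. The STAT motif TTCNNNGAA occurred in 7.02%, and the GATA factor motif AGATAA in 9.99%. Csf2rb2 held a PU.1 match that starts 167 bases before the start site and a STAT match 15 bases before it. Csf2ra held a pair of adjoining PU.1 matches, 14 and 8 bases before the start, and Il2rg held none of these motifs. The RefSeq table matched 7 of the 9 receptors, without Csf2rb and Csf1r. Of the others matched, Il3ra held a C/EBP match, Csf3r a PU.1 match, Il6ra a PU.1 and a GATA match, and Il6st none. A match is a description of letters, not a bound site.

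Since Mettl3 methylates adenosine in motifs such as GGACT, the transcripts were searched for it. Csf2rb and Csf2rb2 held 7 matches each (1.43 and 1.48 per kb), Csf2ra 3 (1.62), Csf1r 8 (1.70), Il6ra 6 (1.79), Il6st 10 (1.15), Csf3r 3 (0.86) and Il3ra 1 (0.43). Il2rg held 0 in 1670 bases, where 91.5% of 13792 genes held at least 1 and the median was 1.07 per kb. Methylation itself was not measured in these libraries.

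The other genes of the receptor pathways were read from a list of 97 genes in 9 sublists, of which 91 were tested in bulk. This list too was chosen with earlier results of these data known, so its counts are descriptions. In HSC 4 rose and 8 fell (median log2 fold change -0.14, all genes 0.0025), where 3.66% of all genes rose and 2.49% fell. The genes that rose were Pim2 (1.18 ± 0.21, edgeR adjusted p = 0.0018) and Bcl2l1 (0.84 ± 0.20, adjusted p = 0.013), survival genes known as STAT targets, with the interferon gamma receptor chain Ifngr2 and the TNF receptor Tnfrsf1a. The genes that fell included the receptor Flt3 (-3.77 ± 0.45, adjusted p = 4.6e-05), the ligand Il15 (-1.12 ± 0.23, adjusted p = 0.0052), and Cebpa, a regulator of myeloid receptor genes (-1.95 ± 0.38, adjusted p = 0.0035). Crlf2, Pik3r1, Ptpn6 and Bcl6 fell as well, at -0.46 to -1.98.

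In MPP1 10 of 91 rose and 6 fell (median 0.23, all genes 0.0092), where 4.74% of all genes rose and 3.89% fell, with Il7r (2.45 ± 0.59, adjusted p = 0.016), a partner of Il2rg in the interleukin-7 receptor, and the STAT-induced inhibitor Socs2 (1.68 ± 0.42, adjusted p = 0.018) among those that rose. In MPP2 3 rose and 4 fell (median -0.19, all genes -0.018), against 1.51% and 0.965% of all genes. In MPP4 4 rose and 5 fell (median -0.13, all genes -0.012), against 1.03% and 2.10%. Socs2 rose in MPP2 (1.80 ± 0.42) and MPP4 (2.09 ± 0.43), Bcl2l1 in both (0.98 ± 0.20 and 1.29 ± 0.20), and Il15 (-1.18 ± 0.23 and -1.47 ± 0.23) fell in both.

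In LK cells 83 of the 97 genes were tested, and 20 rose and 12 fell (median 0.12, all genes -0.0037), where 13.7% of all genes rose and 8.72% fell. B cell-like cells numbered 608 in WT and 2795 in Mettl3KO and erythroid-like cells 1915 and 833, and the part of this make-up in the pathway values was not tested. The feedback inhibitors of cytokine signalling had the highest median of the 9 sublists, 1.26, with 4 of 7 up and 0 down. They were Socs3 (3.26 ± 0.19, edgeR adjusted p = 2.2e-04), Socs2 (3.17 ± 0.21, adjusted p = 3.4e-04), Cish (1.94 ± 0.18, adjusted p = 6.0e-04) and Socs1 (1.26 ± 0.17, adjusted p = 0.0024). Of the 7 STAT targets 4 rose, among them Pim2 (1.78 ± 0.11), Pim1 (1.27 ± 0.08) and Bcl2l1 (1.22 ± 0.10). The receptor partners Il7r (1.72 ± 0.25) and Il4ra (1.24 ± 0.18), both of which pair with Il2rg, rose as well, as did Il12rb1 and Il27ra, which makes 4 of 10 partner receptors up and 0 down. Among the 13 regulators of myeloid receptor genes 0 rose and 4 fell, Gata1 among them (-1.03 ± 0.16, adjusted p = 0.0036). Of the 7 kinases Jak3, the partner of the common gamma chain, rose, and Jak2 and Fes fell.

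Across the 24 bulk libraries the receptors themselves differed in their profiles. Pearson's r of log2 CPM was 0.74 between Csf2rb and Csf2rb2, 0.68 between Csf2rb and Il3ra and -0.68 between Csf2ra and Il2rg. These values are descriptions over libraries that share 8 groups, so population and genotype enter each of them, and the pair of beta chains may also share reads. Of 10762 genes with at least 5 CPM on average, those most like Csf2rb were Rhog (0.85), Piezo1 (0.83) and Slc16a6 (0.83), and those most like Csf2rb2 were Ahdc1 (0.88), Selp (0.88) and Zswim1 (0.88). The genes most like Csf2ra included Tkt (0.87) and Ap1s2 (0.87). Il3ra was most like 4930523C07Rik (0.82), Tnfaip8l2 (0.81) and Selplg (0.81), and Csf3r was most like Adcy7 (0.78), Tbc1d8 (0.76) and Hk3 (0.75).

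Csf1r had the closest companions, with Fcgr3, an Fc receptor of phagocytes, at 0.93, Plbd1 at 0.92 and Pyhin1 at 0.91. Il6st was most like Rbm15b (0.78), Tex2 (0.77) and Pik3cg (0.75), and Il6ra was most like Rassf4 (0.82), Parp8 (0.78) and Bcl6 (0.78). Il2rg was most like 1700017B05Rik (0.89), Ccdc102a (0.86) and Rlf (0.81).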

How the data were processed

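Bulk RNA-seq of 24 sorted libraries (SMARTer, poly(A), paired 50-base reads) and droplet sequencing of 6 LK libraries were used. The authors deposited whole-number counts per gene for the bulk libraries, in a table whose name speaks of FPKM, and UMI counts per gene and cell. The submitters' processing notes name Bowtie, TopHat, Cell Ranger 2.2, mm10 and GRCh37 without roles. The counter, annotation and strand setting were not given in the sources used here. Bulk libraries held 28896498 to 55276836 counts and LK libraries 28796862 to 44308479 UMIs, and droplet library pairs shared 7 to 30 cell barcodes.

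Bulk counts were fitted with edgeR 4.0.16 (TMM, filterByExpr, quasi-likelihood test, 8 group means, 16 residual degrees of freedom), two-sided, with Benjamini-Hochberg adjustment over all genes tested and calls at an adjusted p under 0.05. Errors of fold changes are standard errors. The labels say that the 3 replicates came from different mice, and whether the same mice gave several populations is not stated. An exact permutation test of 3 against 3 cannot go below 0.1, so p-values come from the model.

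Of 24693 cells, 297 with over 10% mitochondrial UMIs were removed, and doublets were not called or removed. Cells were clustered with scanpy 1.11.5 (2000 variable genes without the receptors, 30 components, 20 neighbours, Leiden resolution 1), which gave 23 clusters. A cluster took the name of a marker list when its mean log2 fold was at least 1, at least 3 markers were 2-fold higher, and a marker was among its top 10 genes. UMIs were summed per library and class for edgeR, and CPM there are on summed totals.

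Named were the 9 receptors, Mettl3, genes of the pathway list past the threshold (at most 12 per comparison by lowest p) and the 3 genes most like each receptor. Some genes that this rule names are not reported here. The receptors and lists were chosen with earlier results of these data known. Alternatives were RLE size factors, DESeq2 1.42.0, no filter, each library left out, the replicate number as a block, the 6 libraries of a comparison alone, all cells kept, Leiden resolution 0.5 and unthinned shares. Added after seeing the data were LK sums without neutrophil-like cells, the lymphoid-primed-like clusters alone and a view without libraries high in mature-cell markers. The tests were tested on simulated data. For HSC, on 15545 genes, 31% of 2-fold and 58% of 4-fold changes were recovered, and for LK sums, on 13071 genes, 89% and 99%. Unchanged genes called numbered 2 and 15. Promoters come from RefSeq, and exon lengths and positions from GENCODE vM21.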

Additional observations from a re-analysis of the deposited data

Results flagged for a closer look

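The response of Il2rg to Mettl3 deletion differed between HSC and MPP4. Its log2 fold change in HSC exceeded that in MPP4 by 1.05 ± 0.24 (SE, edgeR interaction test with Benjamini-Hochberg adjustment, adjusted p = 0.032). All 3 Mettl3KO libraries lay above WT in HSC and all 3 lay below WT in MPP4. The call was lost in 10 of 12 fits that left out 1 library, at 0.96 to 1.125 and adjusted p of 0.055 to 0.11, and held without HSC Mettl3KO replicate 1 or MPP4 WT replicate 1.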

How the results depend on the processing

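Of 31 receptor calls, 31 were kept with RLE size factors, 27 with DESeq2 (10 gained), 28 with the replicate block (5 gained) and 30 without the filter on low counts (2 gained). A fit on the 6 libraries compared kept 10 of 15 calls (5 gained), Leiden resolution 0.5 kept 6 of 9 (2 gained), and both all cells and LK sums without neutrophil-like cells kept 4 of 4. In no fit but that of the lymphoid-primed-like clusters alone did a called receptor change sign. The cause of the changes was not tested. The 6-library fit gave 0 receptors in MPP1 (4 in the shared fit), 1 in MPP4 (2), 2 for WT HSC against MPP2 (1) and 2 for WT MPP1 against MPP4 (0). DESeq2 gave 3 for WT HSC against MPP2, 5 for WT HSC against MPP4 (3) and 2 for WT MPP1 against MPP4. The lymphoid-primed-like clusters alone, in place of the pooled class, left 6 of 11 class calls, and Csf1r turned from -0.62 to 0.30 there. Without thinning, shares were 31.4% and 34.7% for Csf3r in granulocyte-like and 31.9% and 30.4% for Csf1r in monocyte-like cells.

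With 1 library left out, 125 of 192 calls were kept and 3 gained, with 1 to 2 receptors called in HSC, 3 to 5 in MPP1, 1 to 2 in MPP2, 0 to 1 in MPP4, 3 to 5 in LK and 7 to 11 in the LK classes. WT HSC against MPP2 ranged from 0 to 1, HSC against MPP4 from 1 to 3, MPP1 against MPP2 was 0 in each fit, and the difference of effects between HSC and MPP4 ranged from 0 to 1. With the replicate number as a block, 2 receptors were called for WT HSC against MPP2 and 1 for WT MPP1 against MPP4. The block gained Il6ra in WT HSC against MPP2 (adjusted p = 0.036) and MPP4 (0.043), Csf1r in WT MPP1 against MPP4 (0.048), Csf3r in MPP1 (0.042) and Csf2rb in granulocyte-like cells (0.015), and lost Il2rg in MPP1 (0.065) and Csf1r and Il6ra in the pooled HSC/MPP-like and lymphoid-primed-like cells (0.057 each). Same-numbered libraries were not shown to be paired throughout: of 28 group pairs, 0 had every correlation of deviations over 0.1 (0.052 to 0.25 between WT populations, -0.20 to 0.054 between genotypes, -0.30 to -0.066 in LK). Between WT populations, however, 12 of 18 same-numbered pairs were over 0.1 (median 0.11), against 0 of 36 other-numbered pairs (median -0.046, highest 0.065). Between Mettl3KO populations 4 of 18 and 2 of 36 were. Whether same-numbered WT libraries shared a mouse or a batch was not tested, and the main fit took all libraries as unpaired. Low counts limited Csf2rb2 in LK classes, where it was not tested in 6 of 7.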
